A study of Mus musculus with 6 samples.

Results

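Glutathione S-transferases were examined in E14.5 fetal liver (FL) with and without Pogz, a zinc finger protein of chromatin. The group holds 10 genes, Gstm5, Gstt3, Gstm1, Gsta4, Gstt1, Gstt2, Gstp1, Gsto1, Mgst1 and Mgst3, of 18193 genes that the arrays name through a probe set assigned to a single gene. Gstm5 and Gstt3 were chosen by their higher signal in Pogz-/- arrays, so their values are a description and carry no test. The other 8 genes were listed as family members and were tested. Together the 10 genes have 16 probe sets, and the brightest probe set of each gene, over all arrays, leads.

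RNA from 3 Pogz+/+ and 3 Pogz-/- livers was hybridised to 6 whole-genome Affymetrix mouse arrays, 1 for each liver. All embryos were C57BL/6 congenics after more than 10 generations of backcrossing, and no agent was given. The Pogz-/- allele, made with a Cre driven by the beta-actin promoter, lacks 3′ exons for the CENPB and DDE domains and part of the zinc fingers in every cell, so the knockout is not restricted to liver. The targeting DNA came from a clone of another strain and was introduced into embryonic stem cells, from which the mouse line was derived. Pogz and Gstm5 both lie on chromosome 3, with starts 13.1 Mb apart in the GRCm38.p6 annotation. Which strain that stretch came from in the Pogz-/- embryos was not tested.

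Glutathione S-transferases join the tripeptide glutathione to electrophiles, which makes xenobiotics and products of lipid peroxidation more soluble and ready for export. The cytosolic enzymes fall into classes by sequence (alpha, mu, pi, theta, omega), while Mgst1 and Mgst3 belong to the unrelated membrane family called MAPEG. Many of them are induced through NRF2, which is held back by KEAP1 and binds antioxidant response elements with small MAF proteins, and some through the aryl hydrocarbon receptor at xenobiotic response elements. Liver is the organ best known for these enzymes, and the fetal organ is also the main site of red cell production. FL is a mixture of cells, and in such RNA fewer cells of a type and less RNA per cell cannot be told apart.

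The sequences just upstream of Gstm5 and Gstt3 are shown because these genes define the group and their windows differ in response element letters. The sequences are from RefSeq on GRCm38.p6, read 5′ to 3′ on the strand of the gene and ending at the base before the annotated start. The Gstm5 window is chr3:107895604-107895853 on the plus strand, and the Gstt3 window is chr10:75781423-75781672 on the minus strand. Capitals mark matches to the antioxidant response element TGACNNNGC or to the xenobiotic response element GCGTG, each searched on both strands.
Gstm5: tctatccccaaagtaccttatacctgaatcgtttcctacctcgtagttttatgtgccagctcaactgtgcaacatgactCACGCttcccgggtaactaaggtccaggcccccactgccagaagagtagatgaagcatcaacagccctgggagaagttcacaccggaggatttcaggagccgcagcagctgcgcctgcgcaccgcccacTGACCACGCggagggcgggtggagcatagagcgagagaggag
Gstt3: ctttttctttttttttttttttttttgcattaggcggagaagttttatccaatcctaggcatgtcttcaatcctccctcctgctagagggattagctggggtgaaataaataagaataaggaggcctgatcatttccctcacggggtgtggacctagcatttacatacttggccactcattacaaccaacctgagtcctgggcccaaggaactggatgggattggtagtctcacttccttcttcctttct

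The Gstm5 window holds the letters of an antioxidant response element at position −42 (counted back from the start) and of a xenobiotic response element, read on the other strand, at −171 and −38. The nearer xenobiotic match lies inside the antioxidant match and shares its last bases. Neither window of Gstt3, which has a second annotated start, holds a match to either motif. The promoter table covered 8 of the 10 genes with 11 starts, and did not list Gstt2 or Gsta4. Among these, Mgst1 was the other gene with a match to the string TGACNNNGC, at −56 of 1 of its starts and on the opposite strand. Variants of the antioxidant response element with other letters were not searched, so a window without a match may still hold one. The matches of both genes are set side by side on the strand that carries the motif, Gstm5 from chr3:107895800-107895832 and Mgst1 from chr6:138140459-138140491 read on the minus strand, with the motif in capitals.
Gstm5: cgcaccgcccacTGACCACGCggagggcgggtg
Mgst1: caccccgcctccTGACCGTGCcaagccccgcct

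A match to the xenobiotic string GCGTG was also found upstream of Mgst3 at −22, of Gstp1 at −13 and of both starts of Gstm1. Over 32851 promoter windows of 250 bases, 10.2% held the antioxidant motif and 28.2% held the xenobiotic motif. The matches are a description of letters and not of binding.

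The values are log2 of the deposited signal, which was scaled so that the trimmed mean of every array is 150. Replicate 1 of Pogz+/+ differed most from the rest before any comparison. It correlated with them at 0.794 to 0.810 over all probe sets, against 0.884 to 0.906 for pairs without it. Its 3′ over 5′ actin ratio, a measure that is high where labelled RNA covers mostly the 3′ end, was 52.3. It was 5.50 and 6.63 in replicates 2 and 3 of Pogz+/+, and Pogz-/- arrays ranged from 3.72 to 4.09. Gapdh ratios ranged from 7.37 to 15.3 in Pogz+/+ arrays, all above the 4.87 to 5.08 of Pogz-/- (exact permutation test, two-sided, p = 0.1 for either ratio, the smallest that 3 against 3 arrays can give). Fold changes of the 10 genes are therefore given with all 6 arrays and without Pogz+/+ replicate 1. Leaving that array out does not remove the difference in ratios. Replicates 2 and 3 of Pogz+/+ (Gapdh 7.37 and 9.29) still lay above all Pogz-/- arrays in both ratios. Genotype and these ratios thus cannot be told apart in either fit. The female transcript Xist was high in Pogz+/+ replicate 3 and Pogz-/- replicates 1 and 2, so the sexes were not balanced.

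Markers of the sampled tissue were also read. All 9 measured hepatocyte markers and all 8 measured erythroid markers were at or above the median probe set in at least 1 genotype. This bar is low, since 10220 of 18193 genes had a mean over all arrays at or above it. All measured granulocyte, macrophage, megakaryocyte and early progenitor markers cleared it as well. It therefore does not tell liver from other blood-forming tissue. The deletion itself could not be checked, since 3 of the 4 Pogz probe sets were higher in Pogz-/- and no source used here gives their position relative to the deleted exons. Over all genes the median log2 fold change (Pogz-/- over Pogz+/+) was −0.17 on 6 arrays and −0.10 without Pogz+/+ replicate 1. Quantile normalization moved the median on 6 arrays by 0.16 and centring each array on its median by 0.46, and fold changes are best read against these values.

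Of the 8 tested genes, limma called 0 higher and 0 lower in Pogz-/- at an adjusted p under 0.05 (Benjamini-Hochberg over 18193 genes), with or without Pogz+/+ replicate 1. At an unadjusted p under 0.05, 1 of the 8 passed on 6 arrays and 2, Gstm1 and Mgst1, without replicate 1, against 17.7% and 18.3% of all genes. Over all genes, 0.0989% were called higher and 0.022% lower on 6 arrays, and 2.41% and 2.07% without that array, so a count of 0 of 8 is not a result about the family. The leading probe sets of the 10 genes had a median log2 fold change of 0.48 on 6 arrays and 0.27 without that array, which includes the pair chosen for being higher. Of the 10, 7 were above 0 on 6 arrays, 8 without that array, and 10 on 6 arrays after median centring, where the median of all genes was also above 0, at 0.29. In 4 of the 10 genes, Gstm5, Gstt3, Mgst1 and Mgst3, all 3 Pogz-/- arrays lay above all 3 Pogz+/+ arrays, and in 0 they lay below. The separation of Gstm5 and Gstt3 goes with the rule that chose them, and of the 8 tested genes it was 2 above and 0 below. Over all genes, 10.8% lay above and 16.3% below.

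Gstm5 is a mu class enzyme known for its expression in brain and testis. Its single probe set read 10.27, 10.65 and 10.54 in Pogz+/+ replicates 1 to 3 and 11.67, 11.96 and 11.85 in Pogz-/- replicates 1 to 3. The groups did not overlap, which goes with the rule that chose the gene. The gap, the spread and the standard error below are therefore a description and not a test. The mean log2 signal was 10.49 ± 0.20 (SD, n = 3) in Pogz+/+ and 11.83 ± 0.15 (SD, n = 3) in Pogz-/-. The difference was 1.34 (SE 0.16), or 2.54-fold, and 1.23, or 2.35-fold, without Pogz+/+ replicate 1, which was the lowest of the 6 arrays. Over 18 other settings the log2 difference ran from 1.23 to 1.80.

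Gstt3 is a theta class enzyme, a class that also acts on small halogenated compounds. Its single probe set was dim, below the median of all probe sets (log2 signal 5.17) in every array. It read 2.98, 0.11 and 0.76 in Pogz+/+ and 4.26, 4.67 and 4.78 in Pogz-/-. The Pogz-/- arrays lay close together and above all Pogz+/+ arrays, of which replicate 1 was the highest. The log2 difference was 3.29 (SE 0.98) on 6 arrays and 4.13 without replicate 1. Values this low are far apart on a log scale for small differences in signal, and with 16 added to every intensity before taking log2 the difference was 1.04.

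**Figure D1:**
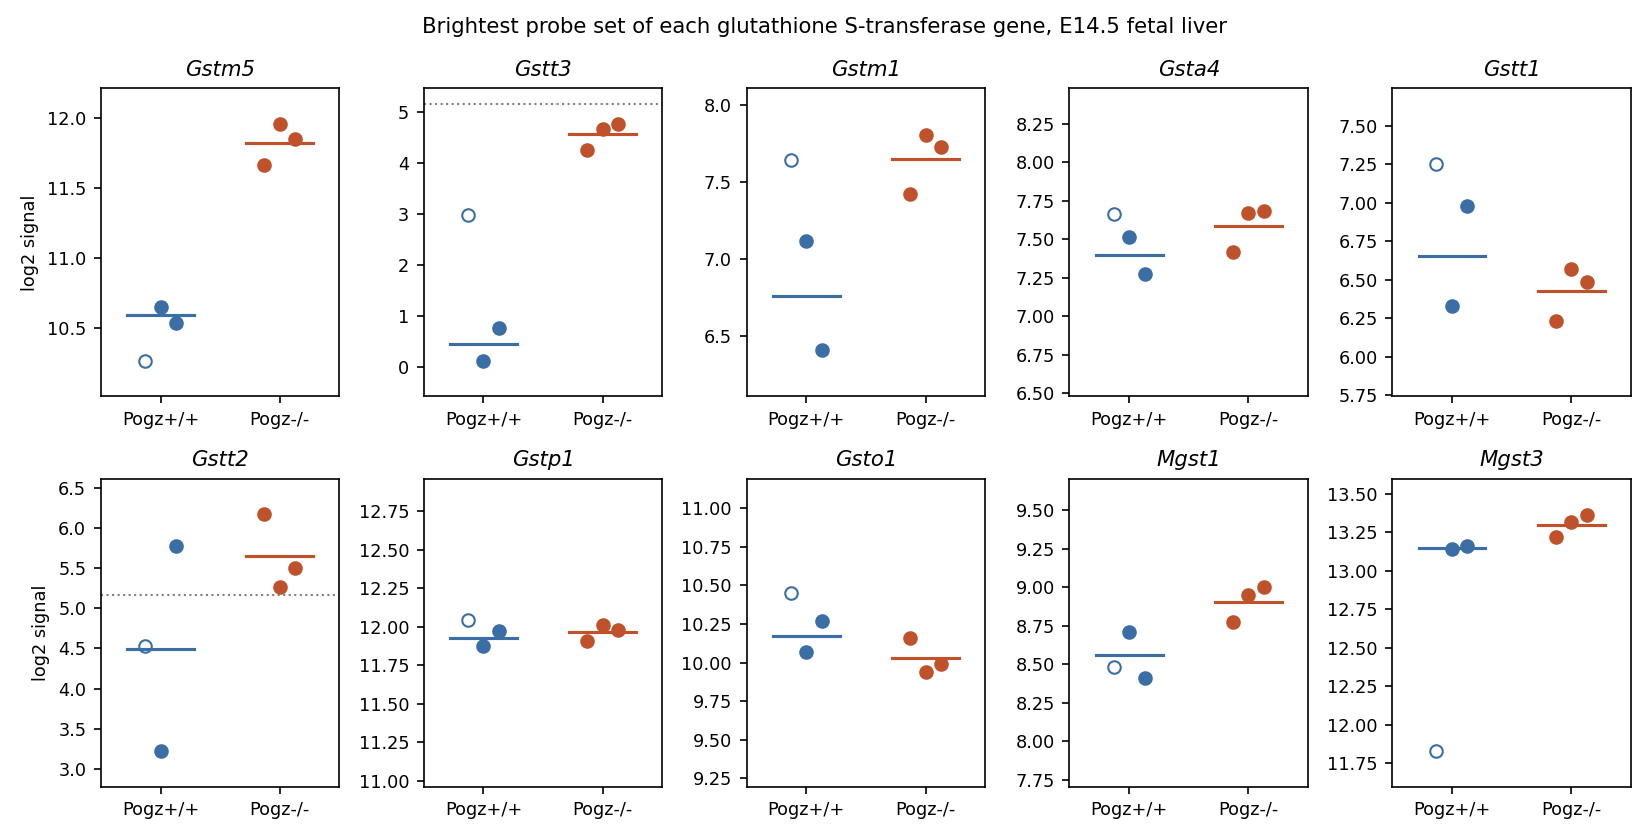
Log2 signal of the brightest probe set of each gene in the 3 Pogz+/+ (blue) and 3 Pogz-/- (orange) arrays. Each panel has its own vertical axis, the open circle is Pogz+/+ replicate 1, lines are means without that array, and the dotted line is the median of all probe sets, 5.17, where it falls in range. Gstm5, Gstt3, Mgst1 and Mgst3 have all Pogz-/- arrays above all Pogz+/+ arrays, and in Mgst3 the open circle lies far below the rest.

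Gstm1 is the main mu class enzyme of adult liver. Its leading probe set read 7.64, 7.11 and 6.41 in Pogz+/+ and 7.42, 7.80 and 7.73 in Pogz-/-. Pogz+/+ replicate 1 alone overlapped the Pogz-/- arrays. The log2 difference was 0.60 on 6 arrays (SE 0.30, limma adjusted p = 0.318) and 0.89 without replicate 1 (SE 0.23, limma adjusted p = 0.0555), close to the threshold but past it in neither fit.

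The 4 probe sets of Gstm1 did not give 1 answer. 1448330_at was higher by 0.28 on 6 arrays (limma adjusted p = 0.657) and by 0.57 without replicate 1, while 1425626_at was at −0.78 (limma adjusted p = 0.473) and −0.31. The last, 1425627_x_at, was at −0.03 and 0.56. Pogz+/+ replicate 1 was the highest Pogz+/+ array in all 4 probe sets. The leading probe set and the last carry the suffix by which Affymetrix marks probes that can match related sequences, so the mu genes may share signal there.

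Mgst1 is a microsomal enzyme abundant in liver that also reduces lipid hydroperoxides. Its leading probe set read 8.48, 8.71 and 8.41 in Pogz+/+ and 8.77, 8.95 and 9.0 in Pogz-/-. The groups did not overlap, but the nearest arrays were 8.71 and 8.77. It was the tested gene with an unadjusted p under 0.05 on 6 arrays. The log2 difference was 0.37 (95% interval 0.00 to 0.75, limma adjusted p = 0.280) and 0.35 without replicate 1 (limma adjusted p = 0.215). Its further probe set, 1415898_at, was dim in both genotypes and differed by 0.00 (95% interval −2.34 to 2.35) and by 0.47 without replicate 1.

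Mgst3 is a microsomal glutathione transferase and peroxidase that can also make leukotriene C4. Its leading probe set read 11.83, 13.14 and 13.16 in Pogz+/+ and 13.22, 13.31 and 13.37 in Pogz-/-. Most of the difference came from replicate 1, which lay more than 1 log2 unit below every other array. It was 0.59 on 6 arrays (limma adjusted p = 0.329) and 0.15 without that array (95% interval −0.01 to 0.30, limma adjusted p = 0.291).

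The further probe set of Mgst3, 1450563_at, read 6.59, 5.97 and 6.56 in Pogz+/+ and 6.76, 6.99 and 7.50 in Pogz-/-. Here replicate 1 was not low, and the groups did not overlap. The log2 difference was 0.72 (limma adjusted p = 0.284 over 45037 probe sets) and 0.82 without replicate 1 (limma adjusted p = 0.169). Of the 6 further probe sets of the 10 genes, limma called 0 in either fit. Of all probe sets, 0.0377% were called on 6 arrays and 2.67% without replicate 1.

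Gstt2, a theta enzyme of the same gene cluster as Gstt3, read 4.53, 3.22 and 5.77 in Pogz+/+ and 6.17, 5.27 and 5.50 in Pogz-/-. It was dim in Pogz+/+ only, and Pogz+/+ replicate 3 lay among the Pogz-/- arrays. The log2 difference of 1.14 had a 95% interval from −0.32 to 2.60 (limma adjusted p = 0.379), and was 1.15 without replicate 1 (limma adjusted p = 0.384). It hung on single Pogz+/+ arrays, at 0.50 without replicate 2 and 1.77 without replicate 3. Gstt1, the best studied theta enzyme, read 7.25, 6.33 and 6.98 in Pogz+/+ and 6.23, 6.57 and 6.48 in Pogz-/-. Its arrays overlapped, and the log2 difference was −0.42 (95% interval −1.08 to 0.23, limma adjusted p = 0.461), −0.22 without replicate 1, −0.69 without Pogz+/+ replicate 2 and 0.04 after median centring.

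Gsta4, the alpha class enzyme that clears the lipid peroxidation product 4-hydroxynonenal, read 7.66, 7.51 and 7.28 in Pogz+/+ and 7.41, 7.67 and 7.68 in Pogz-/-. The difference of 0.10 was smaller than the spread within Pogz+/+ (95% interval −0.34 to 0.55, limma adjusted p = 0.811). It was 0.19 without replicate 1 and −0.00 without Pogz+/+ replicate 3. Gstp1, the pi class enzyme, which also binds the stress kinase JNK, read 12.05, 11.88 and 11.97 in Pogz+/+ and 11.91, 12.01 and 11.98 in Pogz-/-. Its log2 difference, −0.00, was the smallest of the 10 genes on 6 arrays, and the 95% interval ran from −0.30 to 0.30 (limma adjusted p = 0.998). The value was 0.04 without replicate 1, 0.13 after quantile normalization and 0.46 after median centring, and near-identical Gstp genes may share this probe set.

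Gsto1, the omega class enzyme, reduces dehydroascorbate and mixed disulfides. It read 10.45, 10.07 and 10.27 in Pogz+/+ and 10.16, 9.94 and 9.99 in Pogz-/-, with overlap. Its log2 difference was −0.23 (95% interval −0.59 to 0.12, limma adjusted p = 0.456), −0.14 without replicate 1, turning to 0.23 after median centring. The further probe set, 1416531_at, gave −0.05 and −0.17 without replicate 1.

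**Figure D2:**
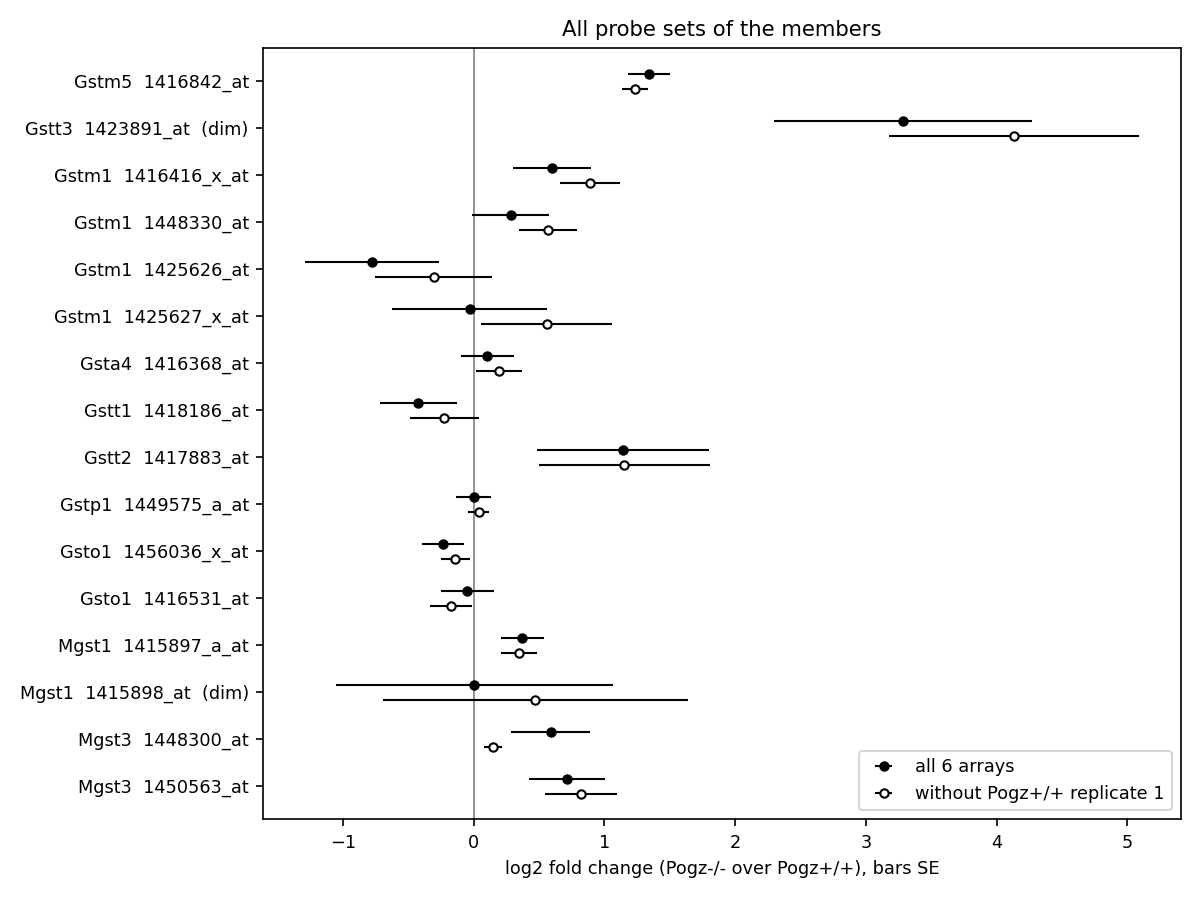
Log2 fold change (Pogz-/- over Pogz+/+, horizontal axis) with its standard error for the 16 probe sets of the 10 genes, with all 6 arrays (filled) and without Pogz+/+ replicate 1 (open). Gstm5 at 1.34 has a short bar and Gstt3 at 3.29 a long one, and the leading probe set of Mgst3 drops from 0.59 to 0.15.

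The mu and theta genes sit in clusters, so the neighbours of Gstm5 and Gstt3 could be read on the same arrays. On chromosome 3 the protein-coding order in GRCm38.p6 is Gstm5, Gstm7, Gstm6, Gstm3, Gstm2, Gstm1, Gstm4. Gstm7, the coding gene next to Gstm5, read 6.43, 5.85 and 6.18 in Pogz+/+ and 4.12, 4.83 and 5.02 in Pogz-/-. The groups did not overlap and lay the other way round from Gstm5, and the Pogz-/- arrays were dim. The log2 difference was −1.50 (SE 0.43, limma adjusted p = 0.152) and −1.36 without replicate 1 (limma adjusted p = 0.116), so it did not pass the test. A further Gstm7 probe set, 1419072_at, read 5.74, 5.55 and 5.10 against 3.78, 4.38 and 4.49, and its log2 difference was −1.24 (limma adjusted p = 0.295).

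Further along, Gstm6 was dim and differed by −1.22 on 6 arrays, and Gstm3 differed by −0.64. Gstm2 differed by −0.55 and Gstm4 by −0.68. Without Pogz+/+ replicate 1 these became −0.49, −0.32, 0.10 and −0.46, and limma called 0 of them in either fit. On chromosome 10 the order is Gstt3, Gstt1, Gstt4, Gstt2. Gstt4 was dim, at 2.44, 4.42 and 2.68 in Pogz+/+ and 1.72, 1.71 and 2.35 in Pogz-/-, and its log2 difference was −1.25 (limma adjusted p = 0.487) and −1.62 without replicate 1. Differences along either cluster thus had both signs.

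**Figure D3:**
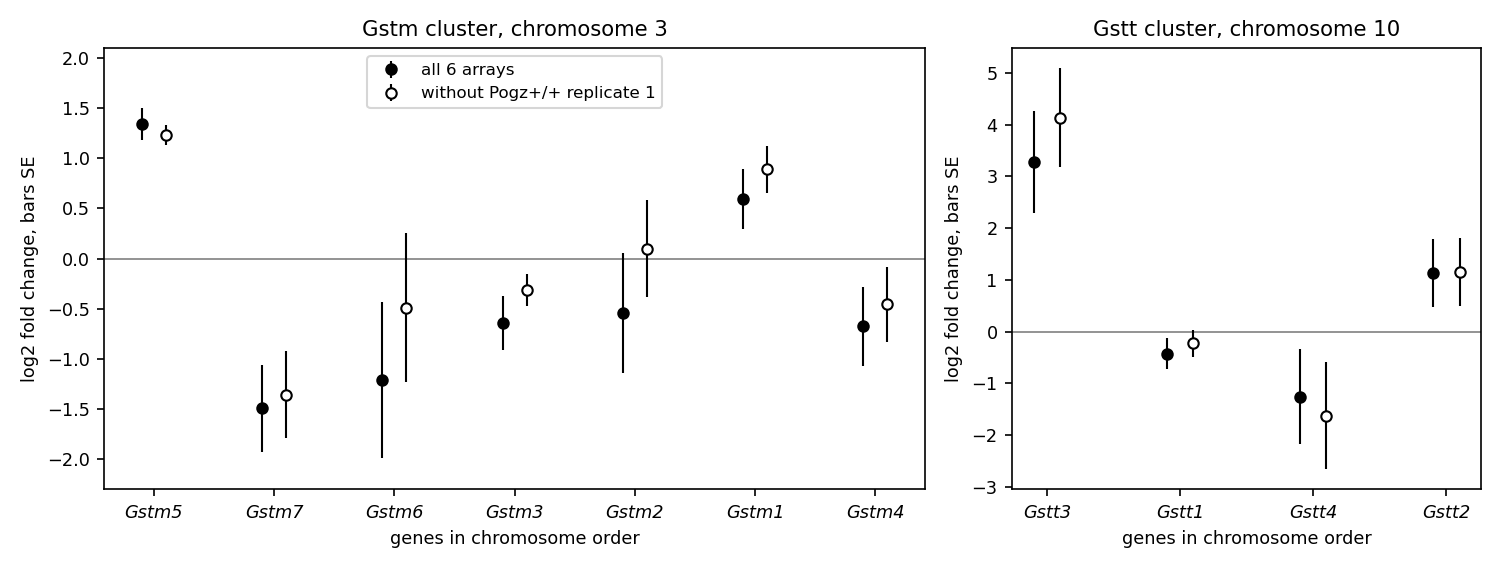
Log2 fold change (Pogz-/- over Pogz+/+, vertical axis, bars SE) of the coding genes of the Gstm cluster on chromosome 3 and the Gstt cluster on chromosome 10, in chromosome order and not to distance. Filled circles use all 6 arrays and open circles leave out Pogz+/+ replicate 1. Gstm5 at 1.34 stands beside Gstm7 at −1.50, and Gstt3 at 3.29 beside Gstt1 at −0.42.

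The rest of the family was measured through 18 of 20 listed genes, the remaining cytosolic transferases and MAPEG proteins. Limma called 0 higher and 0 lower in either fit. An unadjusted p under 0.05 was found for 3 of the 18 on 6 arrays, about the 17.7% of all genes. The median log2 fold change was −0.23 on 6 arrays and −0.07 without replicate 1, near that of all genes. All Pogz-/- arrays lay above Pogz+/+ in 1 gene, Hpgds, a transferase that makes prostaglandin D2 in mast cells and other blood cells. Its probe set, dim in Pogz+/+, differed by 1.63 (limma adjusted p = 0.321), and by 0.73 without replicate 1. All lay below in 4 genes, Gstm3, Gstm7, Gstt4 and Ptges. Over all genes, 10.8% lay above and 16.3% below, so counts of 1 and 4 of 18 are not a result about the family. Ptges, which makes prostaglandin E2, was dim and differed by −2.07 (limma adjusted p = 0.254) and by −2.47 without replicate 1. Alox5ap, the MAPEG protein that serves 5-lipoxygenase, differed by 0.41 (limma adjusted p = 0.306), and by 0.25 without replicate 1 (limma adjusted p = 0.392).

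Glutathione supply was read from 13 of 14 listed genes of synthesis and breakdown. On 6 arrays limma called 0 of them, with a lowest adjusted p of 0.0844, and 4 of the 13 had an unadjusted p under 0.05, against 17.7% of all genes. Without Pogz+/+ replicate 1, 2 rose and 2 fell, where 2.41% of all genes were called higher and 2.07% lower. Gclc, the catalytic subunit of the rate-limiting ligase, read 9.49, 10.09 and 10.00 in Pogz+/+ and 10.50, 10.69 and 10.71 in Pogz-/-, and rose by 0.59 without replicate 1 (limma adjusted p = 0.00932). Gclm, its modifier subunit, differed by 0.08 in that fit (limma adjusted p = 0.649). Of the other listed genes of cysteine supply, Cbs differed by −0.06 and the transporter Slc7a11 by −0.29 in that fit, and neither was called.

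Gss, glutathione synthetase, read 9.44, 8.74 and 8.60 in Pogz+/+ and 7.91, 7.97 and 7.95 in Pogz-/-, and fell by 0.73 without replicate 1 (limma adjusted p = 0.0138). Cth, which makes cysteine from cystathionine, read 1.79, 5.09 and 5.72 in Pogz+/+ and 7.26, 6.87 and 6.33 in Pogz-/-. It rose by 1.42 without replicate 1 (limma adjusted p = 0.0331) and was dim in Pogz+/+, with replicate 1 far below the others. Chac2, which cleaves glutathione, was tight in both groups, at 11.26, 11.28 and 11.21 against 10.50, 10.60 and 10.52. It fell by 0.71 without replicate 1 (limma adjusted p = 0.00225) and differed by −0.71 on 6 arrays (limma adjusted p = 0.0844). Gclc, Cth and Chac2 were also called without replicate 1 after quantile normalization and after median centring, while Gss missed the threshold after median centring (limma adjusted p = 0.0686). In limma's plain fit without replicate 1 none of these 4 passed (adjusted p from 0.270 to 0.311). The list median was −0.60 on 6 arrays and −0.34 without replicate 1.

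Of 14 measured genes (15 listed) that reduce glutathione or use it, limma called 0 on 6 arrays, and 3 had an unadjusted p under 0.05, against 17.7% of all genes. Without replicate 1, Gpx1 alone was called and fell by 0.37 (limma adjusted p = 0.0200), where 2.07% of all genes were called lower. Gpx1, a peroxidase abundant in red cells, read 15.94, 14.58 and 14.41 in Pogz+/+ and 14.20, 14.17 and 14.00 in Pogz-/-. After quantile normalization its log2 difference without replicate 1 was −0.04 (limma adjusted p = 0.810). Gpx4, which protects membrane lipids, differed by −0.67 on 6 arrays (limma adjusted p = 0.235) and by −0.34 without replicate 1. Gpx2, an epithelial peroxidase, differed by −1.49, and by −0.95 without replicate 1. Hagh, which hydrolyses glutathione thioesters, differed by −0.36, by −0.23 without replicate 1 and by 0.10 after median centring. Pogz+/+ replicate 1 was the highest array for each of these 4 genes.

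The regulators and their targets were read from 28 of 31 listed genes, with a median log2 fold change of −0.17 on 6 arrays and −0.03 without replicate 1. Limma called 0 of them on 6 arrays, where 5 of the 28 had an unadjusted p under 0.05, about the share of all genes. Without replicate 1 it called 1 higher and 1 lower, against 2.41% and 2.07% of all genes. Txnrd1, an NRF2 target that reduces thioredoxin, rose by 0.53 in that fit (limma adjusted p = 0.0382), from 9.02, 9.28 and 9.21 in Pogz+/+ to 9.57, 9.83 and 9.94 in Pogz-/-. Nfe2, the erythroid relative of NRF2, fell by 0.66 (limma adjusted p = 0.0120). Without replicate 1, Txnrd1 missed the threshold after quantile normalization (limma adjusted p = 0.0591) and Nfe2 after median centring (limma adjusted p = 0.0719), and both missed it in the plain fit.

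Nqo1, Srxn1 and Nfe2l2 itself passed in neither of these fits. Nqo1, the quinone reductase often used to read NRF2 activity, read 6.11, 6.74 and 6.60 in Pogz+/+ and 7.35, 7.10 and 7.12 in Pogz-/-, with no overlap. Its log2 difference was 0.71 (limma adjusted p = 0.205) and 0.52 without replicate 1 (limma adjusted p = 0.189), but with median centring as well it was called (0.79, limma adjusted p = 0.0283). Nfe2l2, the gene of NRF2 itself, differed by 0.51 and by 0.18 without replicate 1, and was likewise called with median centring as well (0.45, limma adjusted p = 0.0281). In that setting, without replicate 1 and with median centring, limma called 1844 of 18193 genes higher and 100 lower. The median of all genes there was 0.18. As deposited, all Pogz-/- arrays lay above all Pogz+/+ arrays in 5 of the 28 genes and below in 5. Over all genes, 10.8% lay above and 16.3% below. Hmox1 (0.54 on 6 arrays) and Abcc4 (0.53) were among those above, and Keap1 (−0.41) among those below. Limma called none of Hmox1, Abcc4 and Keap1 on 6 arrays or without replicate 1 as deposited. Srxn1, another target, differed by −0.32, or 0.14 after median centring. Bach1, a repressor at the same elements, differed by −0.39 (limma adjusted p = 0.255), −0.27 without replicate 1, or 0.07 after median centring. Over all 73 measured genes of the 4 pathway lists (80 listed), limma called 0 on 6 arrays, and 3 higher and 4 lower without replicate 1. Of all genes, that last fit called 2.41% higher and 2.07% lower.

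**Figure D4:**
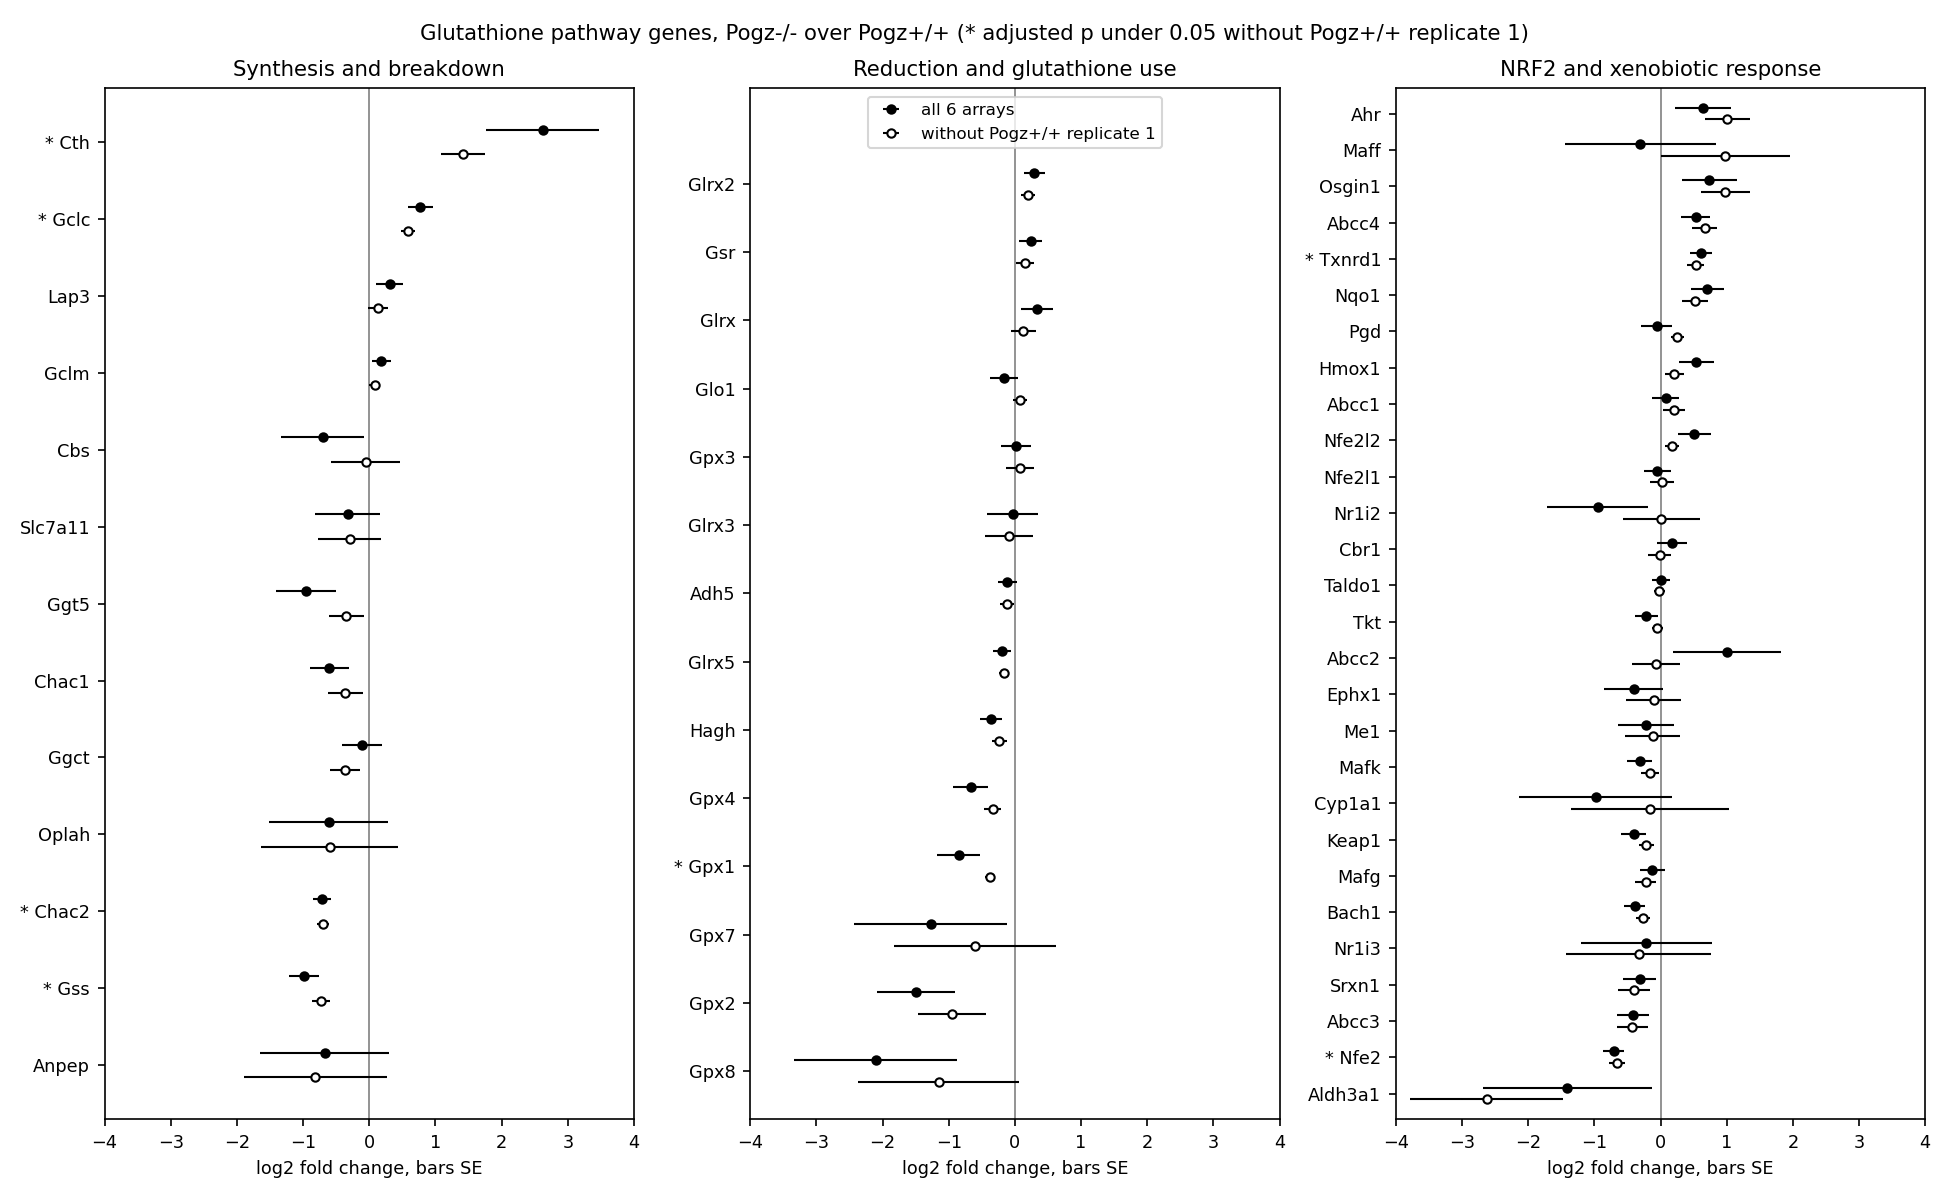
Log2 fold change (Pogz-/- over Pogz+/+, horizontal axis, bars SE) of glutathione pathway genes in 3 lists, with all 6 arrays (filled) and without Pogz+/+ replicate 1 (open). A star marks an adjusted p under 0.05 in the second fit. Cth and Gclc, which rose, and Gss and Chac2, which fell, are in the same list.

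On the deposited scaling, summed signals of several cell type marker lists differed in range between genotypes, and their part in the transferase values was not tested. On 6 arrays limma called 1 marker, Camp. Summed signals of 9 hepatocyte markers (10 listed) ranged from 28223 to 51587 in Pogz+/+ arrays and from 17339 to 27941 in Pogz-/- arrays. For 8 erythroid markers (10 listed) the ranges were 72169 to 95583 and 50837 to 54543. Neither pair of ranges overlapped. In either list 7 markers were lower in Pogz-/- as deposited, but 5 hepatocyte and 1 erythroid marker after median centring. Afp, the brightest of the 9 hepatocyte markers, made up most of their sum on every array. It alone of them had all Pogz-/- arrays below all Pogz+/+ arrays, against 16.3% of all genes. Alb, of the same list, was higher in Pogz-/- by 0.75 (limma adjusted p = 0.296) and by 0.41 without replicate 1, with overlap. In the erythroid list 6 of the 8 markers had all Pogz-/- arrays below. Without replicate 1, limma called 1 hepatocyte marker (Afp) and 5 erythroid markers (Slc4a1, Alas2, Ermap, Klf1 and Tfrc) lower, and 0 of either list higher. Of all genes, that fit called 2.41% higher and 2.07% lower, and its plain version called 0. The 8 markers of mast cells, basophils and eosinophils gave sums of 1512 to 2063 for Pogz+/+ and 2731 to 3304 for Pogz-/-, although 3 of the 8 were higher and 5 lower, and without replicate 1 the 3 higher ones (Prg2, Epx and Kit) were called. The 6 markers of early progenitors summed to 2007 to 2563 and 2843 to 3201, with 2 higher and 4 lower, and Myb was called higher without replicate 1. For 10 markers of endothelium and stroma the sums were 621 to 953 and 532 to 566.

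The ranges of the granulocyte and megakaryocyte sums overlapped between genotypes. Sums over 10 granulocyte markers ranged from 49346 to 85575 for Pogz+/+ and from 49866 to 57270 for Pogz-/-. Of these markers 1, Camp, an antimicrobial peptide of granules, rose by 1.17 on 6 arrays (limma adjusted p = 0.0290). That call was lost in the plain fit, after median centring, with the Xist covariate and by the methods' t-test. It was also lost on leaving out Pogz+/+ replicate 3 or any single Pogz-/- array. Without replicate 1, Camp was at 1.09, and limma called 4 granulocyte markers higher, Camp, Ctsg, Ltf and Lcn2, against 2.41% of all genes. In that fit 0 markers of macrophages, megakaryocytes, endothelium or stroma were called. For 5 megakaryocyte markers (6 listed) the ranges were 4205 to 4690 and 3539 to 4361. Those of 9 macrophage markers, 5660 to 6562 and 4028 to 5620, lay next to each other without overlap.

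The pattern of Gstm5 over the 6 arrays was compared with that of 10219 other genes at or above the median probe set, as the root mean square distance between log2 values centred on each gene's mean. The nearest 5 were Isg20, an exonuclease induced by interferon, at 0.134, Cars, the cysteinyl tRNA synthetase, at 0.136, Sec24a, a coat protein of transport vesicles, at 0.149, Hsd17b10, a mitochondrial dehydrogenase, at 0.160 and Mysm1, a histone H2A deubiquitinase, at 0.169. Isg20 read 8.87, 9.14 and 9.02 in Pogz+/+ and 9.90, 10.33 and 10.10 in Pogz-/-. Its log2 difference of 1.10 and that of Cars, 1.16, are smaller than the 1.34 of Gstm5. None of the 5 is a glutathione transferase. Gstm5 was chosen for its difference between genotypes, and the 5 have a like difference (log2 1.05 to 1.29). The lack of a transferase among 5 of 10219 genes is therefore not a result about the family.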

How the data were processed

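RNA of FL from 3 Pogz+/+ and 3 Pogz-/- embryos (about 100 ng each) was labelled by 3′ in vitro transcription and hybridised to Affymetrix arrays, 1 per liver. The deposited intensity values are linear probe set signals, for which the authors used Affymetrix Expression Console. The version of that software is not given in the sources used here, and neither is its algorithm. Their 2% trimmed mean is 150 on every array, and array medians run from 29.7 to 54.3. The number of arrays limits the precision.

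Genotype and replicate number were taken from the sample labels, and the labels do not say whether embryos of a genotype shared a litter. Log2 was taken with no pseudocount. After leaving out 64 controls, the fit held 45037 of 45101 probe sets. The platform annotation names 1 gene for 34945, giving 18193 genes, each represented by its brightest probe set. Limma 3.58.1 in R 4.3.3 (lmFit, eBayes with trend and robust, two-sided, genotype as the single term, adjusted by Benjamini-Hochberg over genes or probe sets) was used, and a gene rose or fell at an adjusted p under 0.05. The fit without Pogz+/+ replicate 1 leaves 2 Pogz+/+ arrays. A probe set is dim in a genotype where its mean is under the median of all probe sets. The calculation was tested on simulated data.

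The members, gene lists and fits were chosen with earlier results of these data known. From each pathway list the text names genes called on 6 arrays or, where there were none, the 4 with the largest moderated t. Other list genes were named after their values were seen. The nearest genes to Gstm5 are the 5 of smallest distance. Alternatives were limma's plain fit, quantile normalization, median centring of each array, leaving out dim probe sets, a pseudocount of 16, the replicate number as a block, Xist as a covariate, the mean of all probe sets, the methods' t-test, a minimum of 1.5-fold, and leaving out each array in turn, the first also with other scalings or the plain fit.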

Additional observations from a re-analysis of the deposited data

How the results depend on the processing

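Gstm5, Gstt3, Gstm1, Gstt2, Mgst1 and Mgst3 kept a log2 difference above 0 in every alternative that gave a value (17 for the dim Gstt3 and Gstt2, 18 for the rest). Some alternatives, such as the plain fit, the replicate block and the methods' t-test, change the test and cannot change the difference. Gstm5 and Gstt3 were chosen for being higher and their groups do not overlap, so leaving out single arrays could not turn their sign. With 16 added to each intensity, Gstt3 was at 1.04. Over all alternatives Gstm1 ran from 0.02 to 1.16 and Gstt2 from 0.50 to 1.77. Directions turned for Gsta4, Gstt1, Gsto1 and Gstp1. Gsta4 ran from −0.00026 (without Pogz+/+ replicate 3) to 0.19 on leaving out single arrays. Median centring put Gstt1 at 0.035, Gsto1 at 0.23 and Gstp1 at 0.46. With Pogz+/+ replicate 1 left out as well, these were 0.047, 0.13 and 0.31. Quantile normalization put Gstp1 at 0.13, or 0.14 with replicate 1 left out, and leaving out single arrays moved it between −0.045 and 0.039, also 0.039 in the plain fit without replicate 1. Limma called 0 of the 8 tested genes in all alternatives but these, in which replicate 1 was left out: 1 with quantile normalization (Mgst3, 0.36, adjusted p = 0.0267) and 3 with median centring (Gstm1, 1.16, adjusted p = 0.00571, Mgst1, 0.62, adjusted p = 0.0159, and Mgst3, 0.42, adjusted p = 0.00854), where 2 further probe sets were also called. Of all genes, limma called 22 (18 higher, 4 lower). The count was 9 after quantile normalization (7 higher, 2 lower), 4 after median centring (4 higher, 0 lower), 5 with the mean of all probe sets, 1 by the methods' t-test (unadjusted 2412), 0 in the plain fit (2389) and 0 with the Xist covariate (2047), against 3222 unadjusted. Leaving out 1 array gave 0 to 815, where 815 (439 higher, 376 lower) was without Pogz+/+ replicate 1, 23 without replicate 2, 0 without Pogz+/+ replicate 3 or Pogz-/- replicate 1 or 2, and 1 without Pogz-/- replicate 3. Without Pogz+/+ replicate 1 it was 679 with quantile normalization (377 higher, 302 lower), 1944 with median centring (1844 higher, 100 lower) and 0 in the plain fit (2385 unadjusted). Adding the 1.5-fold minimum left 22 on 6 arrays and 497 without replicate 1. For the pathway and marker lists together, limma called 1 gene (Camp). The count was 0 in the plain fit with or without replicate 1, after median centring, with the Xist covariate and by the methods' t-test. On leaving out single arrays it was 21 without Pogz+/+ replicate 1 and 1 without Pogz+/+ replicate 2. It was 0 without Pogz+/+ replicate 3 or any single Pogz-/- array. With Pogz+/+ replicate 1 left out it was 12 with quantile normalization and 27 with median centring. The replicate numbers showed no pairing over all genes. Deviations of same-numbered arrays correlated at 0.00, −0.01 and −0.01, and no Pogz+/+ array correlated best with the Pogz-/- array of its own number. Whether arrays shared a litter or batch was not tested. With the replicate number as a block, 65 genes and 2 list genes were called, and 0 of the 8 tested transferases. The causes of these changes were not tested. Dim probe sets, Gstt3 among them, carry little signal over background.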
